A study of Mus musculus with 21 samples.

Results

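The 9 genes described here encode abundant proteins that package chromatin or work beside it. They are Hmgb1, Hmgb2, Hmgb3, Hmgn1, Hmgn2 and Hmga1 of the high mobility group (HMG), the histone variant gene H2afz, the acidic histone-binding protein gene Ptma and the nucleolar protein gene Ncl. They were taken by name, as the rows HMGB1, HMGB2, HMGB3, HMGN1, HMGN2, HMGA1, H2AFZ, PTMA and NCL, 9 of the 23415 rows of a table that writes symbols in capitals, and all 9 passed the filter on low values. The genes were selected on measured values, namely the differences between reporter-positive and reporter-negative cells in 2 of these cultures, TGFb+IL-6 and IL-12+IL-21. The values of the 9 genes in those 2 comparisons are therefore given as a description without a test.

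HMGB proteins bend DNA through HMG boxes, HMGN proteins bind nucleosomes and loosen their packing, and HMGA proteins bind the minor groove of AT-rich DNA. H2A.Z, the product of H2afz, replaces H2A in nucleosomes at promoters, prothymosin alpha (Ptma) binds histone H1, and nucleolin (Ncl) acts in the synthesis and processing of ribosomal RNA. Many of these transcripts are abundant in dividing lymphocytes, and Hmgb2 and H2afz are widely used to mark cycling cells.

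Naive CD4 T cells of Il23r wt/eGFP heterozygous mice, taken from lymph nodes and spleen, were activated with plate-bound antibodies to CD3 and CD28 and kept in culture for 5 days. In this allele eGFP follows an internal ribosome entry site and Il23r is functionally knocked out, so all groups carried 1 disrupted copy of Il23r. The media held 20 ng/ml IL-12 plus 20 ng/ml IL-21, 20 ng/ml IL-12 alone, 2 ng/ml TGFb plus 25 ng/ml IL-6, or 20 ng/ml IL-1b plus 25 ng/ml IL-6 and 20 ng/ml IL-23. Cells were sorted by eGFP into GFPpos and GFPneg fractions, and the IL-12 culture was represented by GFPneg cells alone. Each of the 7 groups had 3 libraries, 21 in all. The labels name no mouse age and do not say whether replicates came from separate mice or cultures, so p-values measure the spread between these libraries, which may be technical.

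Of the 21 libraries, 16 had at least 7000 genes at a level of at least 1 TPM (a length-corrected share of the transcripts of a library) and were used. The nearest library inside that limit had 7522 such genes and the nearest outside it had 5608. The groups kept 3 libraries of IL-12+IL-21 GFPpos, 2 of IL-12+IL-21 GFPneg, 2 of IL-12 GFPneg, 1 of TGFb+IL-6 GFPpos, 2 of TGFb+IL-6 GFPneg, and 3 each of IL-1b+IL-6+IL-23 GFPpos and GFPneg. In the 5 libraries left out, the genes were often listed at 0: all 9 in TGFb+IL-6 GFPneg replicate 3, and Hmgb3, Hmgn1, Hmgn2 and Hmga1 in IL-12+IL-21 GFPneg replicate 3. Among the 16, summed T cell markers stood at 2740 to 5820 TPM with 11 of 11 detected, while myeloid markers summed to at most 1.42 TPM and gamma-delta T cell markers to at most 0.81 TPM. Ribosomal protein genes took 33.5% to 44.7% of each library. TPM keeps no read depth, and in bulk samples fewer cells of a type and less RNA per cell cannot be told apart.

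**Figure D1:**
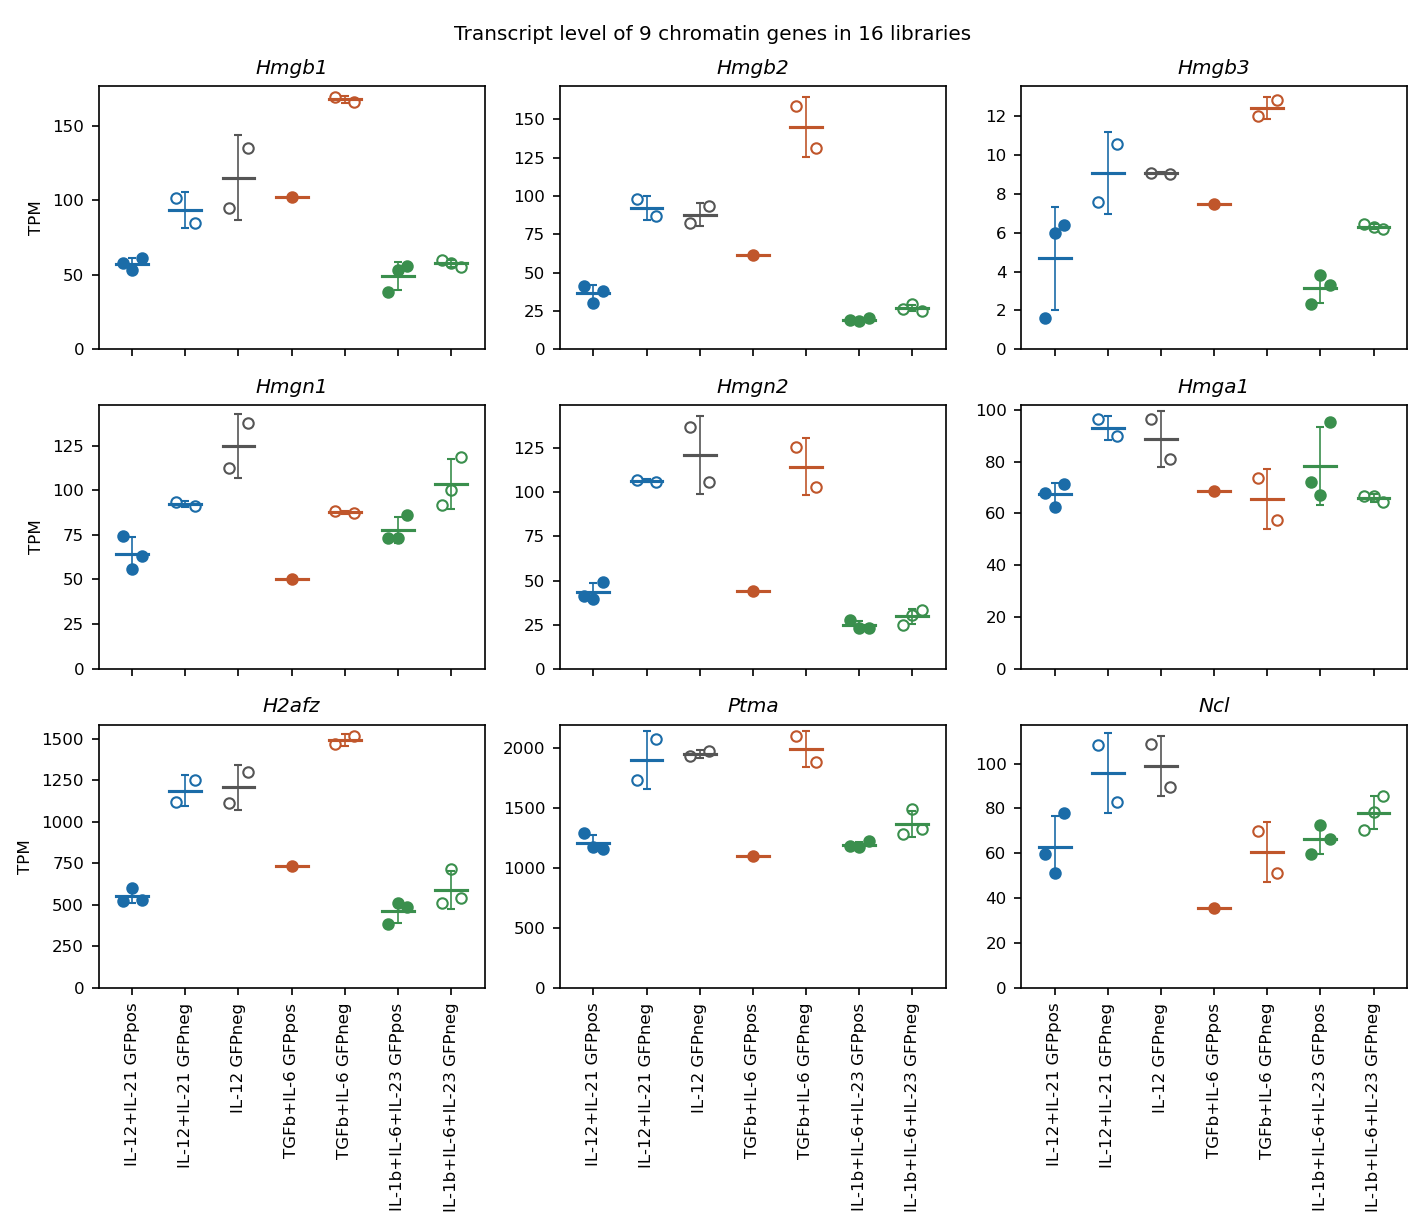
Level of each gene in TPM (linear axis from 0) by group; each point is 1 library, filled for GFPpos and open for GFPneg, with the group mean as a horizontal line and the SD as an error bar where a group has more than 1 library. Hmgb2, Hmgn2 and H2afz stood highest in GFPneg cells of the TGFb+IL-6, IL-12 and IL-12+IL-21 cultures, and Hmga1 varied least, with group means from 65.7 to 93.1 TPM.

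Together the 9 transcripts made up 0.186% to 0.426% of a library. Ptma was the most abundant, at 1098 to 2101 TPM, followed by H2afz at 383 to 1516 TPM. Hmgb3 was the least abundant, at 1.62 to 12.8 TPM, and the others lay between 18.2 and 169 TPM. The ratio of the highest to the lowest group mean was 7.60 for Hmgb2, 4.95 for Hmgn2, 3.94 for Hmgb3, 3.41 for Hmgb1 and 3.23 for H2afz. It was 2.77 for Ncl, 2.49 for Hmgn1, 1.82 for Ptma and 1.42 for Hmga1. TGFb+IL-6 GFPneg cells had the highest mean of Hmgb1, Hmgb2, Hmgb3, H2afz and Ptma, and IL-12 GFPneg cells that of Hmgn1, Hmgn2 and Ncl. GFPpos cells of the IL-1b+IL-6+IL-23 culture had the lowest mean of Hmgb1, Hmgb2, Hmgb3, Hmgn2 and H2afz. For Ptma the libraries of neighbouring groups overlapped over the 3 highest groups, and for Hmga1 through the whole order of 7 groups.

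The genes lie on 8 chromosomes in GRCm38 (GENCODE M21 annotation), all protein-coding. Ptma (1:86526726-86530712, plus strand) and Ncl (1:86344719-86359400, minus strand) share chromosome 1, with 167326 bases between them. Hmgb2 is at 8:57511907-57515999 (plus), Hmgb1 at 5:149046702-149184489 (minus) and Hmgb3 at X:71555918-71560676 (plus). Hmgn1 is at 16:96120618-96127729 (minus), Hmgn2 at 4:133964738-133968650 (minus), Hmga1 at 17:27556497-27563674 (plus) and H2afz at 3:137864487-137866922 (plus). Close copies can share reads with these genes, so their split is uncertain. The related row Hmgb1-rs17 stood at 0.70 to 4.89 TPM in the 16 libraries.

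Hmgb1, Hmgb2, Hmgb3, Hmgn2, H2afz and Ptma tended to be high and low in the same libraries, and Hmgn1, Hmga1 and Ncl less so. Promoters of all 9 genes were read from RefSeq (GRCm38.p6, 9 of 9 matched, H2afz under its newer symbol H2az1). The table lists 2 starts for Hmgb1 and for Hmga1, and the first start listed for each gene was counted, also for the shares over all genes. The window ran from 250 bases before to 50 after the annotated start, and 9 motifs were searched on both strands. CCAAT, the box recognised by the factor NF-Y, was present in 6 of 9 windows and in 37.9% of all 27025 windows in the table. It occurred at least 2 times in 5 of 9 windows (Hmgb2, Hmgb1, Hmgb3, H2afz and Hmgn1), against 12.2% of all windows. The window of the second Hmgb1 start held 0 copies, and with it in place of the first, 4 of 9 windows had at least 2. Hmgn2 held 1 copy, and Hmga1, Ptma and Ncl held none. The 250 bases upstream are shown for Hmgb2, Hmgb3 and H2afz, which hold several copies, and for Ptma, which follows the same profile and holds none. Capitals mark CCAAT, or ATTGG where the box lies on the opposite strand.
Hmgb2: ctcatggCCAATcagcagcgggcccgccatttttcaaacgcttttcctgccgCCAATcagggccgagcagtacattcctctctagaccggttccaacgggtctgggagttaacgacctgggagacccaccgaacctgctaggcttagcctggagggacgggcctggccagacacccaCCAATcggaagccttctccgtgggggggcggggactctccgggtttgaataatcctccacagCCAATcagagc
Hmgb3: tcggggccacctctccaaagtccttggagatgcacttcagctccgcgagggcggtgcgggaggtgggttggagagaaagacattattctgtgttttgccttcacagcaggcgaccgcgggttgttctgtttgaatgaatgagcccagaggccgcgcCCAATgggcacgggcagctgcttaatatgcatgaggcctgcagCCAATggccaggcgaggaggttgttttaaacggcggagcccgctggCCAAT
H2afz: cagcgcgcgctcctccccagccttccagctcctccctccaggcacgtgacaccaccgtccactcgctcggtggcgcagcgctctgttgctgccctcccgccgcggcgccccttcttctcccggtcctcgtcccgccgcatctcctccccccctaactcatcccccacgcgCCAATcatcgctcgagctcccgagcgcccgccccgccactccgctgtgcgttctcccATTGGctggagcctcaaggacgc
Ptma: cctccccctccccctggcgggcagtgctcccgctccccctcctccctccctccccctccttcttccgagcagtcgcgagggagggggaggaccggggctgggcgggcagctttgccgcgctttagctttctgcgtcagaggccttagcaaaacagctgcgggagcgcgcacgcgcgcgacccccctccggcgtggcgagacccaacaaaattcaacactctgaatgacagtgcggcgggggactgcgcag

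These stretches are chr8:57511593-57511842, chrX:71555667-71555916 and chr3:137864237-137864486, all on the plus strand, and chr1:86526307-86526556, also on the plus strand. The Hmgb2 stretch carries 4 boxes, beginning 243, 198, 73 and 11 bases before the start. Hmgb3 carries 3, beginning 94, 51 and 5 bases before it. The H2afz stretch carries 2, at 80 and 23 bases before the start, and the other box of that window lies after the start. GENCODE annotates an exon of the antisense gene Gm43403 over 138 bases of the H2afz stretch. The table of levels has no row of that name.

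GGGCGG, the GC box, stood in 8 of 9 windows, all but that of the first Hmgb1 start, against 35.9% of all windows. Of the 2 forms of the CHR element, a motif of cell cycle promoters, TTTGAA was in 3 of 9 (Hmgb2, Hmgb3 and Ncl), against 18.1%, and TTCGAA in 0 of 9, against 1.57%. E2F sites (TTTCCCGC, TTTGGCGC, TTTCGCGC or TTTGCCGC) were in 2 of 9 (Ptma and Ncl), against 2.32%. The E-box CACGTG was in 2 of 9 (H2afz and Hmgn2), against 7.24%. The window of the second Hmgb1 start held 4 GC boxes and 1 E-box, which makes 9 of 9 genes with a GC box and 3 of 9 with an E-box when both starts are read. In Hmgn2 the GC box and the E-box overlapped. The shares over all windows were not restricted to genes expressed in these cells or matched for GC content. These matches describe letters in a window and are not evidence of binding.

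IL-12 over IL-1b+IL-6+IL-23, both in GFPneg cells, was the first of 2 comparisons that the choice of genes had not used. It asks how the level of these genes differed between a Th1-type and a Th17-type cytokine mixture in cells without reporter signal. In IL-12 cells 5 of 9 genes rose (Hmgn2, Hmgb2, H2afz, Hmgb1 and Ptma), against 4.30% of all 9592 tested genes, and 0 fell, against 2.71%. All 9 estimates lay above 0, against 57.9% of tested genes. Differences below are of log2(TPM + 1) with the SE of limma's fit over all genes, and adjusted p-values are Benjamini-Hochberg values over all tested genes.

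Hmgn2, a nucleosome-binding protein gene, stood at 137 and 106 TPM in IL-12 GFPneg libraries, against 25.0, 30.5 and 33.4 TPM in IL-1b+IL-6+IL-23 GFPneg libraries. The lowest IL-12 library was more than 3 times the highest of the other culture, and the log2 difference was 1.99 ± 0.20 (limma, adjusted p = 7.25e-06). Hmgb2, the DNA-bending protein gene of dividing cells, stood at 82.4 and 93.2 TPM in IL-12 libraries, against 26.6, 29.2 and 24.9 TPM in IL-1b+IL-6+IL-23 libraries. Every IL-12 library was above every other one, with a log2 difference of 1.67 ± 0.18 (limma, adjusted p = 2.45e-05).

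H2afz stood at 1111 and 1301 TPM in IL-12 GFPneg libraries, against 511, 718 and 539 TPM in IL-1b+IL-6+IL-23 GFPneg libraries. The groups did not overlap, and the log2 difference was 1.04 ± 0.17 (limma, adjusted p = 0.000804). Hmgb1, the most widely expressed HMGB gene, stood at 95.0 and 135 TPM in IL-12 libraries, against 59.8, 57.8 and 55.1 TPM in IL-1b+IL-6+IL-23 libraries. The IL-12 libraries were higher but far apart from each other, with a log2 difference of 0.96 ± 0.20 (limma, adjusted p = 0.00624). Without the higher of them, replicate 3, the log2 difference of Hmgb1 was 0.71 and the call was lost (limma, adjusted p = 0.15).

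Ptma stood at 1932 and 1977 TPM in IL-12 GFPneg libraries, against 1283, 1493 and 1327 TPM in IL-1b+IL-6+IL-23 GFPneg libraries. The groups were apart, with a log2 difference of 0.52 ± 0.12 (limma, adjusted p = 0.0144). That call was lost in 6 of 16 alternatives with the same 16 libraries or fewer, at adjusted p-values up to 0.305, among them median-ratio scaling and leaving out either IL-12 library.

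The remaining genes did not pass the threshold in this comparison. Hmga1 stood at 96.4 and 81.1 TPM in IL-12 libraries, against 66.6, 66.8 and 64.3 TPM in IL-1b+IL-6+IL-23 libraries, a log2 difference of 0.42 ± 0.18 (limma, adjusted p = 0.206). Hmgb3 had 9.10 and 9.05 TPM in IL-12 libraries, against 6.44, 6.29 and 6.21 TPM, a log2 difference of 0.46 ± 0.36 (limma, adjusted p = 0.513). The Hmgb3 values were close together within each group, whereas the IL-12 values of Hmga1 lay apart from each other. Ncl had 109 and 89.5 TPM in IL-12 libraries, against 70.6, 78.3 and 85.6 TPM, a log2 difference of 0.34 ± 0.21 (limma, adjusted p = 0.399). Hmgn1 had 112 and 138 TPM in IL-12 libraries, against 92.0, 99.9 and 119 TPM, a log2 difference of 0.27 ± 0.18 (limma, adjusted p = 0.425). In 8 of 9 genes the IL-12 libraries lay above all IL-1b+IL-6+IL-23 libraries, against 23.6% of tested genes; the exception was Hmgn1.

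Other genes of DNA replication and division differed in the same direction. Of 45 tested DNA replication genes 16 rose in IL-12 cells and 0 fell, with a median log2 difference of 0.77, against 0.09 over all tested genes. Pcna, the sliding clamp of DNA polymerases, averaged 137 ± 1.99 TPM in IL-12 cells (SD, n = 2), against 42.8 ± 9.09 TPM in IL-1b+IL-6+IL-23 cells (SD, n = 3). Rrm2, a ribonucleotide reductase subunit, averaged 156 ± 11.97 against 50.4 ± 6.73 TPM, and Tk1, thymidine kinase, 31.8 ± 3.54 against 8.64 ± 1.75 TPM. Of 33 mitosis genes 21 rose and 0 fell, among them Pttg1 (securin) and the kinase genes Aurka and Plk1. Plk1 averaged 14.6 ± 0.785 TPM in IL-12 cells, against 4.68 ± 0.227 TPM in IL-1b+IL-6+IL-23 cells.

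Of 26 histone chaperone genes 5 rose (3 with median-ratio scaling) and 0 fell, led by Asf1b and Nasp, which carry histones to replicating DNA, and Hat1, which acetylates newly made H4. Of 8 further histone variant genes 1 rose, Cenpa, the centromeric H3, with 37.3 ± 0.891 TPM in IL-12 cells against 12.7 ± 5.19 TPM in IL-1b+IL-6+IL-23 cells. Of 24 nucleolar genes 3 rose (Nhp2, Npm1 and Gar1) and 0 fell. With median-ratio scaling 1 of the 24 rose, against 334 of 9592 tested genes. Of 57 tested replication-dependent histone genes 1 rose, against 4.30% of all tested genes. It was Hist1h2bh, which was listed at 0 in all IL-1b+IL-6+IL-23 GFPneg libraries. Histone transcripts of this kind mostly lack poly(A) tails, and SMART-Seq2 usually primes on poly(A), so their levels are uncertain.

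Of 13 further tested genes with HMG domains or names 0 rose and 1 fell (2 with median-ratio scaling). The 1 was Tcf7, an HMG-box transcription factor of naive and memory-like T cells. Tcf7 averaged 17.5 ± 2.39 TPM in IL-12 GFPneg cells, against 73.6 ± 15.97 TPM in IL-1b+IL-6+IL-23 GFPneg cells (limma, adjusted p = 0.000151). Summed B cell markers were also higher in IL-12 cells, at 13.5 to 23.8 TPM, against 5.88 to 8.05 TPM, with 1 of 6 markers reaching 1 TPM in any library and Pax5 at 0. Summed T cell markers stood at 4870 to 5060 TPM in IL-12 GFPneg libraries, against 3000 to 3960 TPM in IL-1b+IL-6+IL-23 GFPneg libraries. CD8 T cell markers stood at 5.37 to 6.73 TPM, against 7.81 to 17.4 TPM. Ribosomal protein genes took 33.5% to 33.6% of IL-12 GFPneg libraries, against 34.0% to 39.8%. The part of any of these in the result was not tested.

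GFPpos over GFPneg cells of the IL-1b+IL-6+IL-23 culture was the second comparison that the choice had not used, and asks whether the genes differ with the reporter in a further culture. By limma 0 of 9 genes were called, against 0.0834% of tested genes called lower and 0.344% called higher. At an unadjusted p under 0.05 there were 4 of 9 (Hmgb2, Hmgb3, Hmgn1 and H2afz), against 809 of 9592 tested genes in either direction. Of the 9 estimates 8 lay below 0, against 39.8% of tested genes. GFPpos libraries had 8362 to 8527 genes at 1 TPM, against 7912 to 8330 in GFPneg libraries, and the part of this in the differences was not tested.

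Hmgb2 stood at 18.8, 18.2 and 20.1 TPM in GFPpos libraries of this culture, against 26.6, 29.2 and 24.9 TPM in GFPneg libraries. The groups did not overlap, with a log2 difference of -0.48 ± 0.16 (limma, adjusted p = 0.394). Hmgb3 had 2.33, 3.83 and 3.31 TPM in GFPpos libraries, against 6.44, 6.29 and 6.21 TPM in GFPneg libraries. These also did not overlap, with a log2 difference of -0.83 ± 0.33 (limma, adjusted p = 0.465).

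Hmgn1 had 73.5, 73.2 and 86.3 TPM in GFPpos libraries, against 92.0, 99.9 and 119 TPM in GFPneg libraries, a log2 difference of -0.41 ± 0.16 (limma, adjusted p = 0.467). Ptma had 1183, 1180 and 1226 TPM in GFPpos libraries, against 1283, 1493 and 1327 TPM in GFPneg libraries, a log2 difference of -0.19 ± 0.11 (limma, adjusted p = 0.662). These 4 genes were lower in every GFPpos library than in any GFPneg one, against 4.70% of tested genes. H2afz overlapped by 1 library, with 383, 513 and 487 TPM in GFPpos libraries, against 511, 718 and 539 TPM in GFPneg libraries, and a log2 difference of -0.35 ± 0.15 (limma, adjusted p = 0.516).

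Hmgn2 (-0.26 ± 0.17, adjusted p = 0.736), Hmgb1 (-0.24 ± 0.18, adjusted p = 0.77) and Ncl (-0.24 ± 0.19, adjusted p = 0.805) had overlapping libraries. Hmga1 had 72.3, 67.0 and 95.4 TPM in GFPpos libraries, against 66.6, 66.8 and 64.3 TPM in GFPneg libraries. It was the 1 gene higher in every GFPpos library, against 9.81% of tested genes, with a log2 difference of 0.23 ± 0.16 (limma, adjusted p = 0.769). Of the DNA replication genes 1 of 45 rose, Rfc3, a subunit of the clamp loader, with 76.7 ± 13.7 TPM in GFPpos cells, against 39.5 ± 5.10 TPM in GFPneg cells (SD, n = 3 each). Of the mitosis, chaperone, nucleolar and variant genes 0 were called by limma. At an unadjusted p under 0.05 there were 3, 0, 1 and 2, against 809 of 9592 tested genes. Of the replication-dependent histone genes 1 fell, Hist1h2ab, and 0 with median-ratio scaling.

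**Figure D2:**
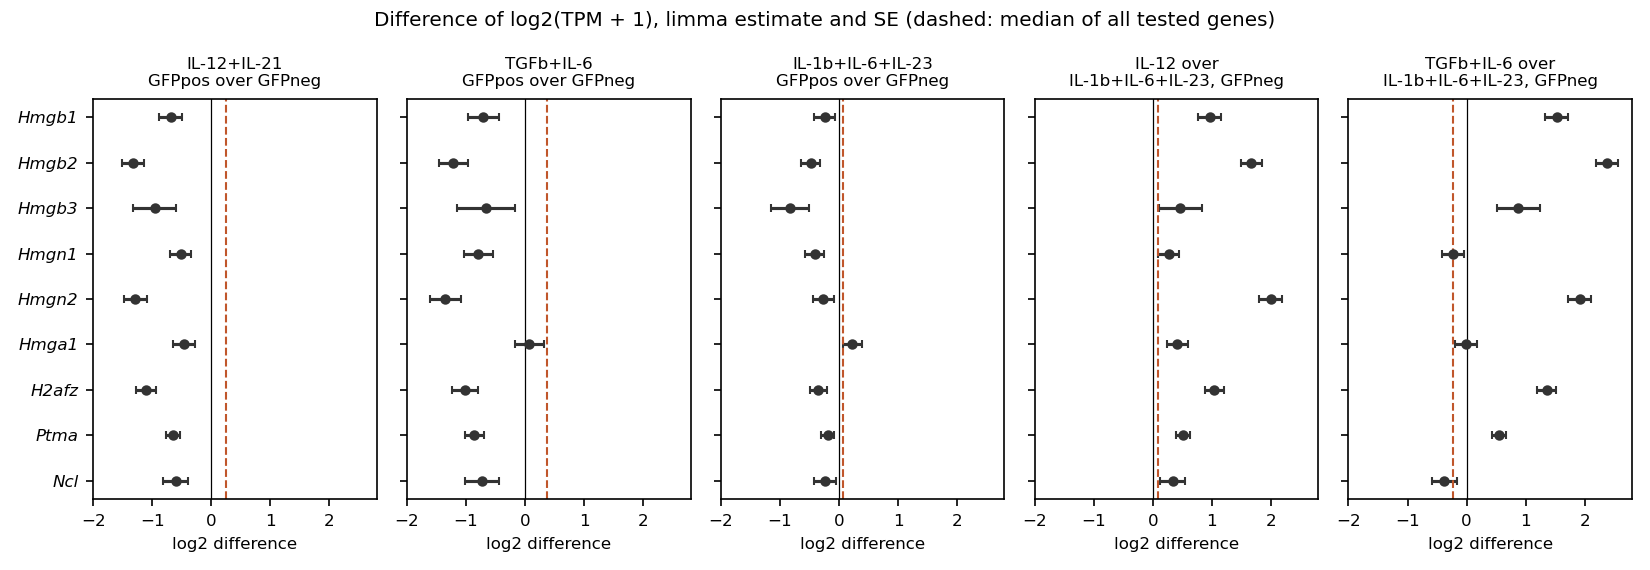
Difference in log2(TPM + 1) of each gene (points, with the SE of the limma fit as error bars) in 5 comparisons; the solid line is 0 and the dashed line the median of all 9592 tested genes. The 2 panels at the left chose the genes and carry no test; in the fourth panel Hmgn2 and Hmgb2 lie farthest right, at 1.99 and 1.67.

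In the IL-12+IL-21 culture, which the choice of genes used, all 9 were lower in every GFPpos library than in any GFPneg library, against 3.93% of tested genes. Hmgb2 stood at 41.05, 30.4 and 37.9 TPM in GFPpos libraries, against 97.7 and 86.7 TPM in GFPneg libraries, a log2 difference of -1.32 ± 0.18. Hmgn2 stood at 41.2, 39.6 and 49.4 TPM in GFPpos libraries, against 107 and 106 TPM in GFPneg libraries, a log2 difference of -1.28 ± 0.20. For both, the mean of GFPpos cells was about 0.4 of that of GFPneg cells (0.395 for Hmgb2 and 0.407 for Hmgn2).

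H2afz stood at 522, 601 and 532 TPM in GFPpos libraries, against 1120 and 1253 TPM in GFPneg libraries, a log2 difference of -1.10 ± 0.17. Hmgb3 stood at 1.62, 6.0 and 6.42 TPM in GFPpos libraries, against 7.59 and 10.6 TPM in GFPneg libraries, a log2 difference of -0.96 ± 0.36. Replicate 1 of the GFPpos cells was far below the other 2 for Hmgb3, and not for the other genes. Hmgb1 stood at 57.9, 53.1 and 61.3 TPM in GFPpos libraries, against 102 and 84.7 TPM in GFPneg libraries, a log2 difference of -0.69 ± 0.20.

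Ptma stood at 1291, 1179 and 1162 TPM in GFPpos libraries, against 1735 and 2075 TPM in GFPneg libraries, a log2 difference of -0.65 ± 0.12. Ncl stood at 59.5, 51.4 and 77.9 TPM in GFPpos libraries, against 108 and 83.1 TPM in GFPneg libraries, a log2 difference of -0.60 ± 0.21. The gaps between groups were narrow for Ncl and Hmgb3 and wide for H2afz, Hmgn2 and Hmgb2. Hmgn1 stood at 74.5, 55.7 and 63.4 TPM in GFPpos libraries, against 93.4 and 91.3 TPM in GFPneg libraries, a log2 difference of -0.52 ± 0.18. Hmga1 stood at 68.0, 62.6 and 71.5 TPM in GFPpos libraries, against 96.3 and 89.9 TPM in GFPneg libraries, a log2 difference of -0.46 ± 0.18. The median log2 difference of the 9 genes was -0.69, against 0.24 over all tested genes, and -0.97 with median-ratio scaling, which brings the median of all genes to 0.01. Summed B cell markers stood at 5.14 to 6.83 TPM in GFPpos libraries, against 8.88 to 9.99 TPM in GFPneg libraries, and natural killer cell markers at 1.34 to 2.51 TPM, against 2.62 to 3.02 TPM. GFPpos libraries had 8460 to 9248 genes at 1 TPM, against 8214 to 8353 in GFPneg libraries, and the part of these in the differences was not tested.

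In the same comparison 0 of 45 DNA replication genes and 0 of 33 mitosis genes were called by limma, against 15 of 9592 tested genes (0.156%). At an unadjusted p under 0.05 by limma there were 11 of each list, against 1392 of 9592 tested genes. With median-ratio scaling 1 of each list was called lower, against 6 of 9592. Estimates lay below 0 for 36 of the 45 and 30 of the 33, against 25.1% of tested genes. Their median log2 differences were -0.44 and -0.35. The other HMG genes (median 0.06), the chaperones (0.02) and the nucleolar genes (0.07) had medians near 0, against 0.24 over all tested genes. Scaling by median ratios moved them to -0.22, -0.21 and -0.18. Histone variant genes had a median of -0.20 (6 of 8 below 0) and replication-dependent histone genes one of -0.28 (32 of 57 below 0). Their values after the same scaling were -0.48 and -0.47, and 0 of either list were called by limma.

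In the TGFb+IL-6 culture, the other one behind the choice, 1 GFPpos library was kept, so the GFPpos side has no spread of its own and the SE borrows that of the other groups. All genes but Hmga1, 8 of 9, were lower in it than in both GFPneg libraries, against 14.0% of tested genes. Hmgn2 stood at 44.0 TPM in GFPpos cells, against 126 and 103 TPM in GFPneg cells, a log2 difference of -1.35 ± 0.26. Hmgb2 stood at 61.6 TPM in GFPpos cells, against 159 and 131 TPM in GFPneg cells, a log2 difference of -1.21 ± 0.25.

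H2afz stood at 734 TPM in GFPpos cells, against 1465 and 1516 TPM in GFPneg cells, a log2 difference of -1.02 ± 0.22. Ptma stood at 1098 TPM in GFPpos cells, against 2101 and 1888 TPM in GFPneg cells, a log2 difference of -0.86 ± 0.16. Hmgn1 stood at 50.2 TPM in GFPpos cells, against 88.2 and 87.0 TPM in GFPneg cells, a log2 difference of -0.79 ± 0.24. These values were close to or below those of GFPpos cells from IL-12+IL-21 for Hmgn2, Ptma and Hmgn1, and above them for Hmgb2 and H2afz.

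Ncl stood at 35.7 TPM in GFPpos cells, against 69.9 and 51.2 TPM in GFPneg cells, a log2 difference of -0.73 ± 0.29. Hmgb1 stood at 102 TPM in GFPpos cells, against 169 and 166 TPM in GFPneg cells, a log2 difference of -0.71 ± 0.26. Hmgb3 stood at 7.50 TPM in GFPpos cells, against 12.04 and 12.8 TPM in GFPneg cells, a log2 difference of -0.66 ± 0.49. For these 3 the GFPpos library lay below both GFPneg libraries. Hmga1 stood at 68.6 TPM in GFPpos cells, between the 73.8 and 57.5 TPM of GFPneg cells, and its log2 difference of 0.07 ± 0.25 was -0.40 with median-ratio scaling. The median over the 9 genes was -0.79, against 0.37 for all tested genes, and -1.27 with median-ratio scaling, which brings the median of all genes to 0. Ribosomal protein genes took 40.1% of the GFPpos library and 44.3% to 44.7% of the GFPneg libraries. The summed CD8 T cell markers (1 of 2 reached 1 TPM in any library) stood at 17.5 TPM in the GFPpos library, against 6.15 to 9.31 TPM in the GFPneg libraries, and B cell markers at 8.33 TPM, against 6.02 to 6.45 TPM. The GFPpos library had 8715 genes at 1 TPM, against 7522 to 8053, and the part of these in the differences was not tested.

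**Figure D3:**
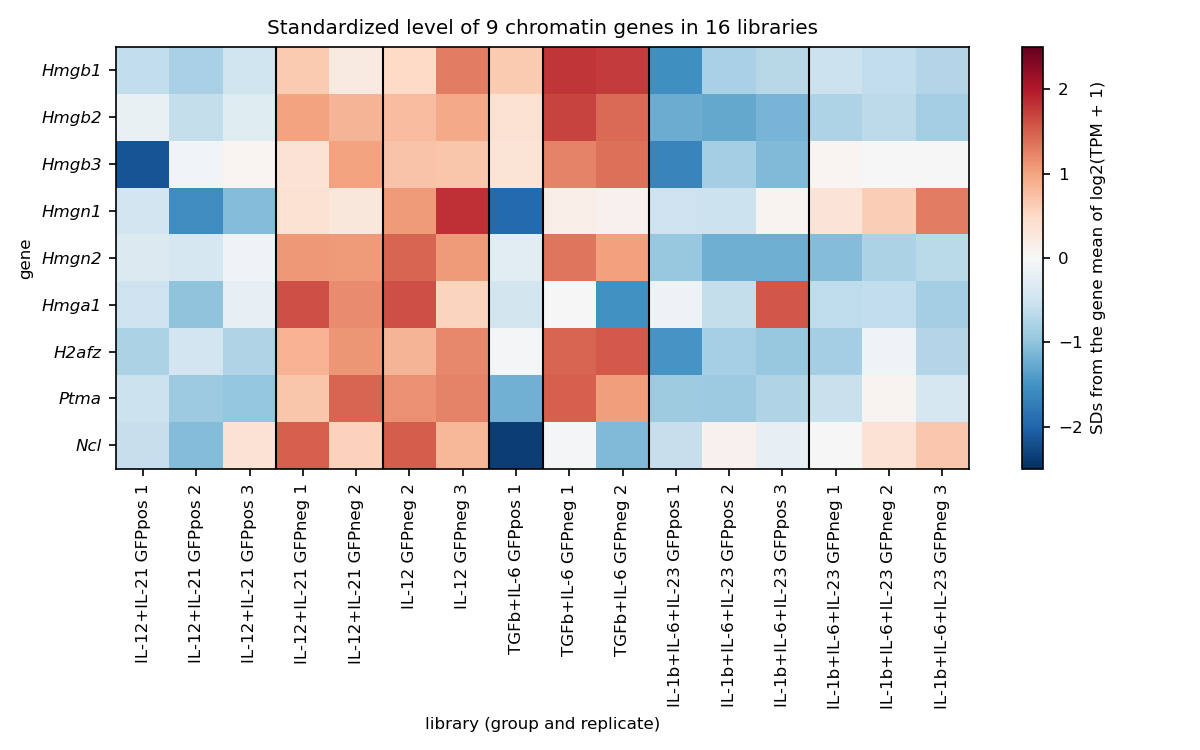
Level of each gene (rows) in each of the 16 libraries (columns, with group boundaries as black lines), in SDs from that gene's mean of log2(TPM + 1). Hmgb1, Hmgb2, Hmgb3, Hmgn2, H2afz and Ptma are high in the GFPneg libraries of the TGFb+IL-6, IL-12 and IL-12+IL-21 cultures, while Hmgn1, Hmga1 and Ncl follow other orders.

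The comparisons of TGFb+IL-6 with IL-1b+IL-6+IL-23, of IL-12+IL-21 with IL-12, and of IL-12+IL-21 with IL-1b+IL-6+IL-23 share libraries with those that chose the genes and are given as values. TGFb+IL-6 over IL-1b+IL-6+IL-23 GFPneg cells had, of the 7 comparisons, the largest log2 differences of Hmgb2 (2.38 ± 0.18), Hmgb1 (1.52 ± 0.20) and H2afz (1.35 ± 0.17), with 1.92 ± 0.20 for Hmgn2, 0.88 ± 0.36 for Hmgb3 and 0.54 ± 0.12 for Ptma. These 6 genes were higher in both TGFb+IL-6 libraries than in all others of that comparison, against 12.6% of tested genes. Hmgb2, for example, stood at 159 and 131 TPM in TGFb+IL-6 GFPneg libraries, against 26.6, 29.2 and 24.9 TPM in IL-1b+IL-6+IL-23 GFPneg libraries.

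Ncl (-0.38 ± 0.21) and Hmgn1 (-0.23 ± 0.18) were lower in both TGFb+IL-6 libraries, against 31.2% of tested genes, and Hmga1 differed by -0.02 ± 0.18. With median-ratio scaling, which moves the median of all genes from -0.23 to -0.01, Hmgn1 and Hmga1 stood at 0.07 and 0.29, while Ncl stayed below 0. The IL-1b+IL-6+IL-23 GFPneg libraries are the same as in the IL-12 comparison above. There Ncl and Hmgn1 stood at 0.34 and 0.27.

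In that TGFb+IL-6 comparison 32 of 45 DNA replication genes and 26 of 33 mitosis genes rose, against 4.83% of tested genes, and 0 of either fell, with median log2 differences of 1.24 and 1.74. Mcm6, part of the replicative helicase, averaged 155 ± 18.2 TPM in TGFb+IL-6 GFPneg cells (SD, n = 2), against 39.7 ± 4.27 TPM in IL-1b+IL-6+IL-23 GFPneg cells (SD, n = 3). Of the 24 nucleolar genes 0 rose and 10 fell, against 10.6% of tested genes, with a median log2 difference of -0.74, and 8 fell with median-ratio scaling. Nop10, of the box H/ACA particles that modify ribosomal RNA, averaged 107 ± 8.63 TPM against 306 ± 67.9 TPM, and Myc, a transcription factor that drives ribosome synthesis, 82.0 ± 10.1 against 178 ± 22.1 TPM.

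Among 8 histone variant genes in the same comparison 2 rose (Cenpa and H2afv), against 4.83% of tested genes, and 1 fell (H2afj), against 10.6%. H2afv, which encodes a second form of H2A.Z, averaged 37.0 ± 5.11 TPM in TGFb+IL-6 GFPneg cells, against 12.5 ± 1.34 TPM in IL-1b+IL-6+IL-23 GFPneg cells (limma, adjusted p = 0.00137). H2afj averaged 145 ± 0.735 against 343 ± 110 TPM (limma, adjusted p = 0.00135). Of 57 tested replication-dependent histone genes 8 rose, against 4.83% of tested genes, and 5 fell, against 10.6%. Summed natural killer cell markers stood at 8.11 to 11.7 TPM in TGFb+IL-6 GFPneg libraries, against 0 to 1.54 TPM, with Ncr1 and Klrb1c at 0 and 1 of 4 markers reaching 1 TPM in any library. Summed T cell markers stood at 4810 to 4850 TPM, against 3000 to 3960 TPM. Ribosomal protein genes took 44.3% to 44.7% of TGFb+IL-6 GFPneg libraries, against 34.0% to 39.8%. The part of any of these in the differences was not tested.

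IL-12+IL-21 over IL-12 GFPneg cells showed small differences, from -0.42 ± 0.20 for Hmgn1 to 0.07 for Hmgb2 and Hmga1, with a median of -0.04 against -0.09 over all tested genes. Hmgn1 was the 1 gene lower in both IL-12+IL-21 libraries, at 93.4 and 91.3 TPM, against 112 and 138 TPM in IL-12 libraries, against 27.8% of tested genes. The signs of H2afz, Hmgb3, Hmgn2, Ncl and Ptma changed under at least 1 of 3 scalings. Of the 24 nucleolar genes 1 fell, Nhp2, against 0.448% of tested genes, and 0 fell with median-ratio scaling. Nhp2 averaged 347 ± 29.1 TPM in IL-12+IL-21 cells, against 593 ± 61.9 TPM in IL-12 cells (limma, adjusted p = 0.0221). By limma 8 of the 24 nucleolar genes had an unadjusted p under 0.05, against 1311 of 9592 tested genes. The median log2 difference of the 24 was -0.38, against -0.09 over all tested genes, and -0.25 with median-ratio scaling.

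Between GFPpos cells, IL-12+IL-21 over IL-1b+IL-6+IL-23 had log2 differences of 0.89 ± 0.16 for Hmgb2, 0.80 ± 0.17 for Hmgn2 and 0.27 ± 0.15 for H2afz. These 3 were higher in every IL-12+IL-21 GFPpos library, against 16.1% of tested genes. The other 6 ranged from -0.27 to 0.32, and the median over all 9 was 0.24, or 0.02 with median-ratio scaling, against 0.15 and -0.02 over all tested genes. The sign of Ptma changed with median-ratio scaling. Of 33 mitosis genes 15 rose, against 3.59% of tested genes, and 0 fell, or 7 rose with median-ratio scaling, and of 45 DNA replication genes 3 rose, led by Pcna with 128 ± 10.7 TPM in IL-12+IL-21 cells, against 41.1 ± 3.14 TPM in IL-1b+IL-6+IL-23 cells (SD, n = 3 each).

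**Figure D4:**
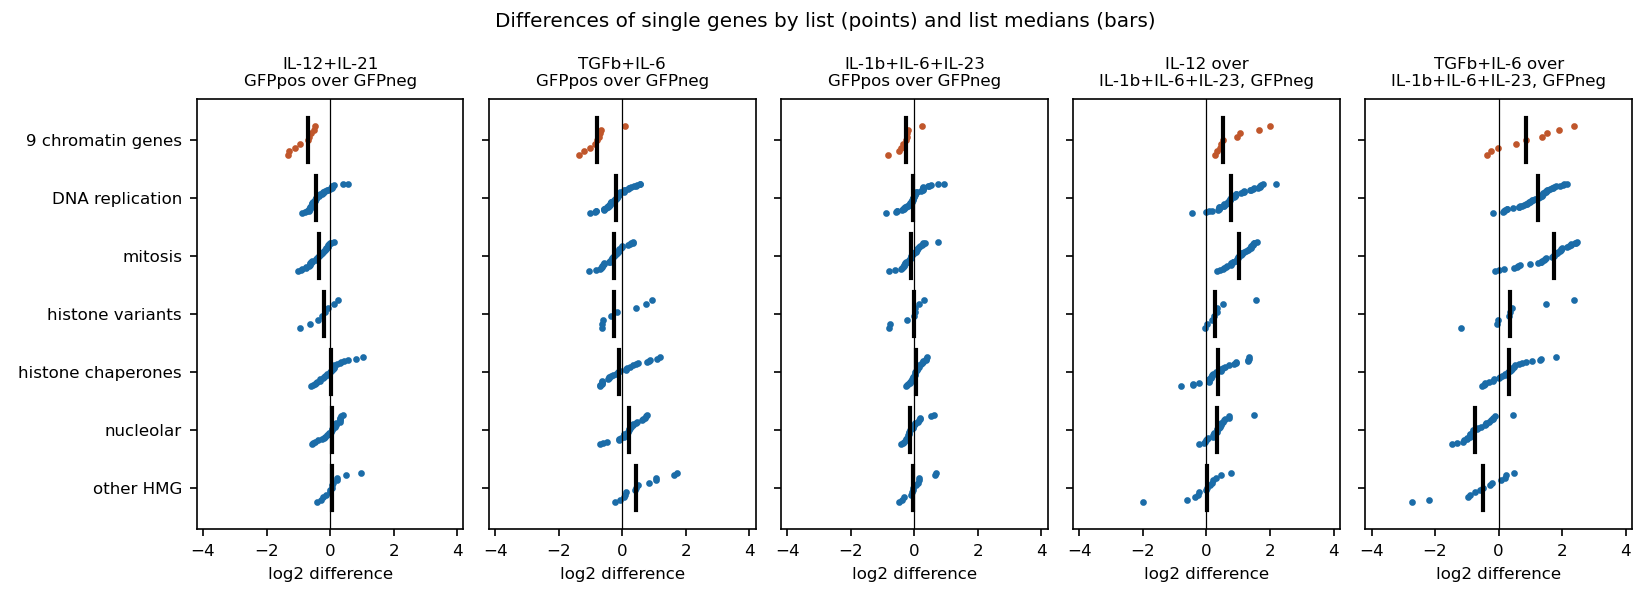
Difference in log2(TPM + 1) of single genes (points) and list medians (black bars) for the 9 chromatin genes and 6 other lists, in 5 comparisons; the vertical line is 0. In the right panel the DNA replication and mitosis genes have medians of 1.24 and 1.74 and the nucleolar genes one of -0.74.

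Hmgn3, a relative of Hmgn1 and Hmgn2, ran opposite to Hmgn2 across several groups. It stood at 5.23 and 4.82 TPM in TGFb+IL-6 GFPneg libraries, against 42.1, 37.7 and 37.2 TPM in IL-1b+IL-6+IL-23 GFPneg libraries, a log2 difference of -2.73 ± 0.23 (limma, adjusted p = 7.73e-07). Hmgn2 in the same libraries differed by 1.92. Hmgn3 stood at 17.5 TPM in TGFb+IL-6 GFPpos cells, against 5.23 and 4.82 TPM in GFPneg cells, a log2 difference of 1.62 ± 0.31. The GFPpos side is 1 library, and no test is given.

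In the IL-12+IL-21 culture Hmgn3 stood at 44.6, 36.6 and 51.9 TPM in GFPpos libraries, against 21.9 and 22.3 TPM in GFPneg libraries, a log2 difference of 0.96 ± 0.23. In the IL-1b+IL-6+IL-23 culture it stood at 89.0, 53.1 and 54.4 TPM in GFPpos libraries, against 42.1, 37.7 and 37.2 TPM in GFPneg libraries, a log2 difference of 0.69 ± 0.21 (limma, adjusted p = 0.272). Every GFPpos library was above every GFPneg library in all 3 cultures. In the IL-1b+IL-6+IL-23 culture this held for 9.81% of tested genes, and for the other cultures that share is not given here. With median-ratio scaling the Hmgn3 differences were 0.63 in IL-1b+IL-6+IL-23, 0.68 in IL-12+IL-21 and 1.19 in TGFb+IL-6. Lef1, an HMG-box factor related to Tcf7, fell with Hmgn3 and Tcf7 in TGFb+IL-6 GFPneg cells, to 29.9 ± 5.42 TPM against 59.6 ± 11.8 TPM in IL-1b+IL-6+IL-23 GFPneg cells (limma, adjusted p = 0.00656).

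Over the 16 libraries the genes followed each other unequally. The correlation of each with the mean of the other 8, on standardized log2 values, was 0.937 for Ptma, 0.905 for H2afz, 0.894 for Hmgn2, 0.828 for Hmgb2, 0.766 for Hmgb1 and 0.707 for Hmgb3. It was 0.524 for Hmgn1, 0.44 for Ncl and 0.376 for Hmga1. Hmgb2 and Hmgn2 were closest to each other (0.947), and Hmgn1 and Ncl were each other's nearest (0.75). These values are descriptive, since the genes were chosen on GFPpos over GFPneg differences in the TGFb+IL-6 and IL-12+IL-21 cultures. The libraries also share groups and TPM scaling.

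Among other genes the mean profile of the 9 was most closely followed by Srsf3 (Pearson r = 0.933 over 16 libraries), Cdk4 (0.917), Eif3e (0.90), D17H6S56E-5 (0.888), Snrpe (0.882), Hnrnpa1 (0.875), Rbbp7 (0.868) and Tipin (0.856), again as a description. Srsf3 and Hnrnpa1 encode splicing factors, Snrpe a core spliceosome protein, Cdk4 a kinase of the G1 phase, Eif3e a translation initiation subunit, Rbbp7 a histone-binding protein and Tipin a replication fork protein. In the IL-12+IL-21 culture Srsf3 averaged 142 TPM in GFPpos cells and 203 TPM in GFPneg cells. In the TGFb+IL-6 culture it averaged 133 TPM in GFPpos cells and 203 TPM in GFPneg cells, and in the IL-1b+IL-6+IL-23 culture 125 TPM in GFPpos cells and 159 TPM in GFPneg cells. In the IL-12+IL-21 culture Cdk4 averaged 155 TPM in GFPpos cells and 199 TPM in GFPneg cells, and Tipin 30.6 TPM in GFPpos cells and 48.8 TPM in GFPneg cells.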

How the data were processed

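Levels came from bulk SMART-Seq2 libraries, per the labels' protocols. The authors deposited 1 table of TPM values with 23415 gene rows. The tools RSEM 1.2.31, Bowtie2 2.2.9 and Trimmomatic 0.32 and the build GRCm38 are named, per the submitters' processing notes; their order, the annotation and the use of strand are not given in the sources used here. TPM sums to the same total in each library, so depth is unknown, no counting interval can be given, and a rise of some transcripts lowers others. An exact 0 can be a failed estimate. Symbols are in capitals in the table, and 22434 of the rows matched GENCODE M21.

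The genes, the lists and the tests were chosen with earlier results of these data known. Named genes were all 9 members, the 8 other genes with the most similar profile (mean TPM of at least 5, no predicted-gene symbol) and from each list at most 3 genes, those of smallest adjusted p in a comparison.

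Libraries with at least 7000 genes at 1 TPM entered 1 limma 3.58.1 fit (R 4.3.3) of log2(TPM + 1) on group means, with a trend. A pseudocount of 1 understates changes of low genes. The 9592 genes with 1 TPM in at least 3 libraries were tested in 7 comparisons, with Benjamini-Hochberg adjustment within each and a threshold of 0.05. The fit was tested on simulated data with changes planted in GFPpos cells of the IL-1b+IL-6+IL-23 culture. Of genes changed by a log2 of 1, 39.6% were called against GFPneg cells, and of those changed by 2, 93.6%, with 7 false calls. An exact two-sided permutation test of 3 against 3 libraries gives at best p = 0.1 and was not used. Alternatives were other pseudocounts, filters, scalings, weights, a replicate block, all 21 libraries, and each library left out in turn where its group kept another.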

Additional observations from a re-analysis of the deposited data

Results flagged for a closer look

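Hmga1 ran in opposite directions with the reporter in 2 cultures. Its log2 difference of GFPpos over GFPneg cells was 0.23 in the IL-1b+IL-6+IL-23 culture, with every GFPpos library above every GFPneg library. It was -0.46 in the IL-12+IL-21 culture, with every GFPpos library below both GFPneg libraries. The difference between the cultures was not tested. The first value did not pass the threshold (limma, adjusted p = 0.769), and the second comes from a comparison behind the choice of genes and carries no test. In the first culture replicate 3 of the GFPpos cells, at 95.4 TPM, stood apart from the other 2 at 72.3 and 67.0 TPM.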

How the results depend on the processing

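With the 5 left-out libraries added (all 21 libraries) 0 of the 9 genes were called in the IL-12 over IL-1b+IL-6+IL-23 GFPneg comparison. The median over the 9 genes was -0.226, with Hmgb1 at -0.21 and H2afz at -0.43. Signs also changed in IL-12+IL-21 GFPpos over GFPneg cells (Hmgb3 0.15, Hmgn1 1.66, Hmgn2 0.97, Hmga1 1.72), in TGFb+IL-6 GFPpos over GFPneg cells (Hmgb1 1.10, Ptma 2.09, Ncl 1.25), and in TGFb+IL-6 over IL-1b+IL-6+IL-23 GFPneg cells (median -2.03, Hmgb1 -0.94, Hmgb2 -0.013, Hmgb3 -0.37, Hmgn2 -0.36, H2afz -2.16, Ptma -3.11). The median of IL-12+IL-21 over IL-12 GFPneg cells became 0.714. Many values in those 5 libraries are listed at 0; the cause was not tested.

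Among the other alternatives, 914 of 990 gene values held. In the tested comparisons that means keeping their side of the threshold, and elsewhere moving by less than the limma SE of the reported estimate. Of the rest, 69 moved further, 7 lost a call (Ptma and Hmgb1 in the IL-12 comparison) and 0 called values reversed. With median-ratio scaling the medians were 0.383 for IL-12 over IL-1b+IL-6+IL-23 GFPneg cells, -0.968 for IL-12+IL-21 GFPpos over GFPneg cells, -1.27 for TGFb+IL-6 GFPpos over GFPneg cells, 0.0925 for IL-12+IL-21 over IL-12 GFPneg cells, 0.0215 for GFPpos cells of IL-12+IL-21 over IL-1b+IL-6+IL-23 and 1.16 for TGFb+IL-6 over IL-1b+IL-6+IL-23 GFPneg cells. With quantile scaling the last 5 were -0.861, -1.05, 0.152, 0.11 and 1.12. Without ribosomal protein rows TGFb+IL-6 GFPpos over GFPneg cells had -0.905, IL-12+IL-21 over IL-12 GFPneg cells 0.0743 and TGFb+IL-6 over IL-1b+IL-6+IL-23 GFPneg cells 1.08. Array weights gave 0.0771 between the GFPpos cells, and a pseudocount of 5 gave 0.624 for TGFb+IL-6 over IL-1b+IL-6+IL-23 GFPneg cells. Of the 8 most similar genes 5 remained with median-ratio scaling.

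Leaving out each library in turn, 3 to 5 genes were called in the IL-12 comparison and 0 each time for GFPpos over GFPneg cells of the IL-1b+IL-6+IL-23 culture. Medians ranged from 0.475 to 0.582 in IL-12 over IL-1b+IL-6+IL-23 GFPneg cells, -0.375 to -0.221 for IL-1b+IL-6+IL-23 GFPpos over GFPneg, -0.794 to -0.631 in IL-12+IL-21 GFPpos over GFPneg, -0.936 to -0.781 in TGFb+IL-6 GFPpos over GFPneg, -0.153 to -0.0155 in IL-12+IL-21 over IL-12, 0.0601 to 0.313 between the GFPpos cells and 0.834 to 0.919 in TGFb+IL-6 over IL-1b+IL-6+IL-23. The range for TGFb+IL-6 GFPpos over GFPneg covers 2 fits, each without 1 GFPneg library, since the lone GFPpos library could not be left out. A lone library in a group is assumed to vary like the other groups. The fit that leaves out libraries under 7000 genes at 1 TPM holds the same 16 libraries as the one reported. The labels do not say that replicate numbers pair the libraries, and of 31 pairs of same-numbered libraries 8 had deviations correlated above 0.1 (range -0.0861 to 0.265). These include both pairs of IL-12+IL-21 GFPpos with GFPneg cells (0.156 and 0.116), where the median with the block was -0.749 and 23 genes in all were called, against 15, and all 3 of IL-12+IL-21 GFPpos and the GFPneg cells of the IL-1b+IL-6+IL-23 culture, which are not compared. For GFPpos with GFPneg cells of the IL-1b+IL-6+IL-23 culture 0 of 3 pairs passed 0.1. With the replicate number as a block 5 genes were called in the IL-12 comparison and 826 genes in all, against 672 without it. Without the fit of all 21 libraries, counts over all genes ran from 0 to 130, against 15, in IL-12+IL-21 GFPpos over GFPneg cells, from 6 to 250, against 31, in TGFb+IL-6 GFPpos over GFPneg cells, from 17 to 52, against 41, for GFPpos over GFPneg cells of the IL-1b+IL-6+IL-23 culture, and from 298 to 826, against 672, in the IL-12 comparison. With the 21 libraries the last 3 were 0, 0 and 16 by limma, with 284, 79 and 266 genes at an unadjusted p under 0.05.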
